A study of Mus musculus with 60 samples.

Results

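The 60 h response to retinoic acid (RA) was measured in mouse embryonic stem (ES) cells depleted of POLE4, a histone-binding accessory subunit of the leading strand DNA polymerase epsilon. The comparison takes 6 of the 60 samples of the series, namely 3 RNA-seq libraries of dPOLE4 cells after 60 h of RA (T60) and 3 of the same cells before RA (T0). The cells were of the E14JU line, in which both groups carried a POLE4-dTAG allele that lets the small molecule dTAG trigger degradation of the POLE4 protein. In dPOLE4 cells dTAG was given at 1 µM for 24 h in serum and LIF before T0. RA without LIF followed. Ctrl cells were the same line given DMSO in place of dTAG, also at T0 and T60. dPOLE4 MCM2-2A cells carried, besides the POLE4-dTAG allele, a mutation of the histone-binding domain of the MCM2 helicase subunit, and also received dTAG. Each of these groups held 3 libraries, and each line was 1 clone as far as the labels say. The titles name dTAG for the T0 libraries while their treatment label reads untreated, and the protocol label lists RA for 24, 48 and 60 h where the titles have T12, T24 and T60. Groups and times follow the titles. The sources do not state whether dTAG was kept in the medium during RA. Between T0 and T60 the cells therefore differed in RA, in LIF, in 60 h of culture and in the time since POLE4 depletion, and the effects of these cannot be told apart.

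RA is a vitamin A derivative that enters the nucleus and binds heterodimers of the receptors RAR and RXR. These sit on pairs of short DNA half-sites, and the ligand turns them from repressors into activators. In ES cells RA drives exit from pluripotency, and its known direct targets include its own receptor gene Rarb, the RA-degrading enzymes of the Cyp26 family and the anterior Hox genes. Hox genes are homeobox transcription factor genes in 4 clusters that give cells their position along the head-to-tail axis, and in ES cells they are held silent by Polycomb complexes.

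The DNA just upstream of 2 RA target genes is printed because both genes were among those that rose and because each stretch holds a direct repeat of the RA half-site with 5 bases between (DR5). The half-site was searched as AGGTCA, with the variant spelling AGTTCA, the variant spelling GGGTCA and the variant spelling GGTTCA, on both strands of the RefSeq promoters of GRCm38.p6, each running from 250 bases before to 50 bases after a gene's start. The 250 bases upstream of the start are given 5′ to 3′ on the gene's strand, with the DR5 in capitals. The Rarb stretch lies at chr14:16575477-16575726 on the minus strand. The Cyp26a1 stretch lies at chr19:37697558-37697807 on the plus strand.
Rarb: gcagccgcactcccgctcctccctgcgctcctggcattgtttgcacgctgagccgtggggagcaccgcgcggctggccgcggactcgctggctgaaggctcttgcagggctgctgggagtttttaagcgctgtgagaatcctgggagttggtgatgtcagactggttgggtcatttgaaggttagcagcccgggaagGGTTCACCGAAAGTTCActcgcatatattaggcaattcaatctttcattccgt
Cyp26a1: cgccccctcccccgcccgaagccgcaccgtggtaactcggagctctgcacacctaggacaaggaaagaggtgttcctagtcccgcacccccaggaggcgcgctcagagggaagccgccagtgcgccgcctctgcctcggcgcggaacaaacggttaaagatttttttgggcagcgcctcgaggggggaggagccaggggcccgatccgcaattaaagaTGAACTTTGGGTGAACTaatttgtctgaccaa

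In Rarb the repeat spanned 53 to 37 bases upstream of the start. In Cyp26a1 it spanned 32 to 16 bases upstream and read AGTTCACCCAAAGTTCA on the opposite strand. A DR5 of these letters was in 0.0974% of all 32851 promoters. Of the 48 genes of the RA, Hox and Meis, Pbx and Cdx lists that rose, 28 had a promoter entry, and 2 of these held a DR5. Over all genes with an entry, 0.091% of those that rose and 0.118% of those that fell held one. A match describes these letters only and does not show binding.

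Levels are given as CPM, the reads of a feature scaled to the size of its library after TMM normalisation. Sequencing depth was 20287632 to 28265728 reads at T0 and 12662793 to 21720847 reads at T60 in the dPOLE4 libraries. No library was found to be a copy of another. Reads from repeats made up 8.12% ± 0.189 (SD, n = 3) of the T0 libraries and 6.43% ± 0.21 of the T60 libraries, and reads from mitochondrial genes 1.78% ± 0.63 and 0.979% ± 0.0519. Pole4 mRNA itself fell from 46.8, 55.1 and 55.5 CPM to 23.8, 26.3 and 22 CPM (log2 fold change -1.15 ± 0.086 (SE), adjusted p = 2.0e-08), but dTAG acts on the protein, so that this level does not check the depletion.

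Of 18671 features tested with edgeR's quasi-likelihood test, 4786 (25.6%) rose and 4203 (22.5%) fell between T0 and T60 in dPOLE4 cells, at a Benjamini-Hochberg adjusted p below 0.01 and a log2 fold change over 0.58. Among them 1488 rose and 994 fell by more than 4-fold. The median log2 fold change of all tested features was -0.01 and the median SE was 0.11. In 77.3% of all tested features the 3 T60 libraries lay wholly above or wholly below the 3 T0 libraries, so that groups that do not overlap were the usual case. The counts of higher and lower members of each gene list below are to be read against these shares.

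**Figure D1:**
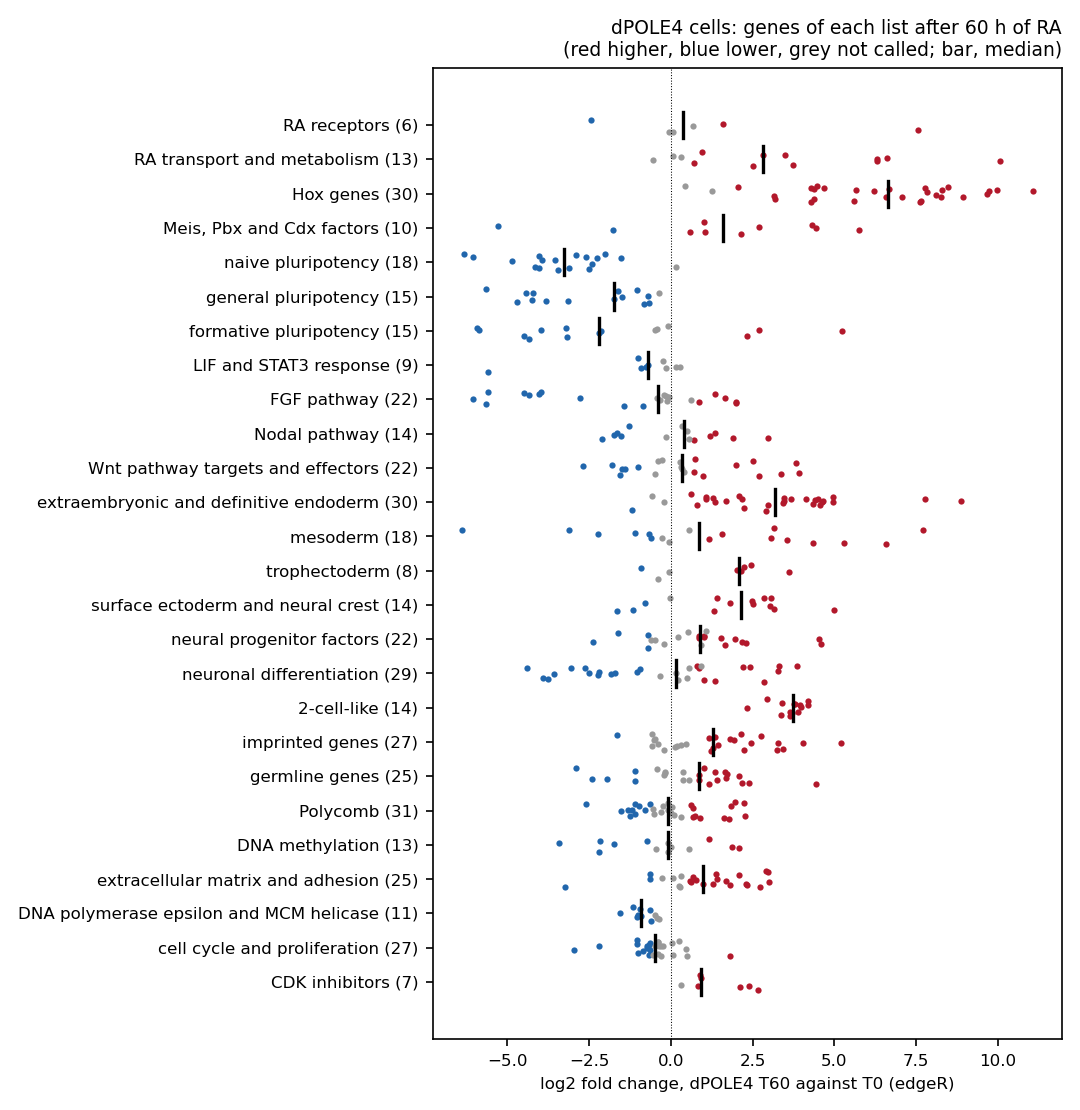
Log2 fold change (x axis) of every tested gene of 26 lists in dPOLE4 cells at T60 against T0. Each point is 1 gene (red higher, blue lower, grey not called), the bar is the median of the list, and the number of tested genes is in parentheses. The naive pluripotency list has a median of -3.27, and the Hox genes that passed the filter on low counts one of 6.64.

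Most tested genes of the machinery that transports, makes and degrades RA rose. Of the 17 genes of this list 13 passed the filter on low counts, Cyp26b1 only through its T60 libraries. Of these 13, 10 rose and none fell, with a median log2 fold change of 2.83 against 0.02 for all genes tested. This median describes the genes that were kept and not the whole list. With at least 10 counts required in every library, 11 were tested and 8 rose. Cyp26b1, a cytochrome P450 that degrades RA, stood at 0.41, 0.125 and 0.297 CPM at T0 and 278, 299 and 329 CPM at T60 (log2 fold change 10.07 ± 0.14 (SE), adjusted p = 2.0e-15). Its relative Cyp26a1 stood at 2.97, 2.63 and 3.56 CPM at T0 and 248, 250 and 239 CPM at T60 (log2 fold change 6.29 ± 0.082 (SE), adjusted p = 1.0e-15). All T60 libraries lay far above all T0 libraries for both enzymes. Dhrs3, which turns retinaldehyde back into retinol, was at 0.717, 1.55 and 1.85 CPM at T0 and 134, 139 and 150.4 CPM at T60 (log2 fold change 6.6 ± 0.14 (SE), adjusted p = 3.1e-14). Stra6, the membrane receptor that takes up retinol, was at 1.23, 1.34 and 1.04 CPM at T0 and 101, 94.4 and 95.2 CPM at T60 (log2 fold change 6.31 ± 0.098 (SE), adjusted p = 4.5e-15). Crabp2, which carries RA into the nucleus, was at 6.45, 7.14 and 10.2 CPM at T0 and 111, 111 and 106 CPM at T60 (log2 fold change 3.74 ± 0.11 (SE), adjusted p = 1.3e-12). The enzymes that oxidise retinaldehyde to RA also rose, with a log2 fold change of 2.83 ± 0.33 for Aldh1a1 and of 0.95 ± 0.22 for Aldh1a2. The call of Aldh1a2 was lost without the third T60 library, at a log2 fold change of 0.77. Crabp1, the cytoplasmic RA binding protein, did not pass the fold threshold at -0.55 ± 0.16, though it did when the third T60 library or the second T0 library was left out, at -0.64 and -0.65.

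The RA receptors differed among themselves. Of 6 tested receptor genes, 2 rose and 1 fell. Rarb went from 0.307, 0.209 and 0.297 CPM to 50.1, 52.9 and 55.8 CPM (log2 fold change 7.56 ± 0.14 (SE), adjusted p = 1.2e-14), with no overlap between the groups. Rxra rose from 34.7, 26.8 and 30.9 CPM to 103, 88.5 and 92.8 CPM (log2 fold change 1.6 ± 0.084 (SE), adjusted p = 4.1e-10). Rarg, the third RAR gene, fell from 189.8, 165 and 184 CPM to 33.2, 35.8 and 31.1 CPM (log2 fold change -2.45 ± 0.069 (SE), adjusted p = 7.1e-13). Rara and Rxrb were not called, with log2 fold changes of 0.07 ± 0.058 and -0.05 ± 0.060.

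**Figure D2:**
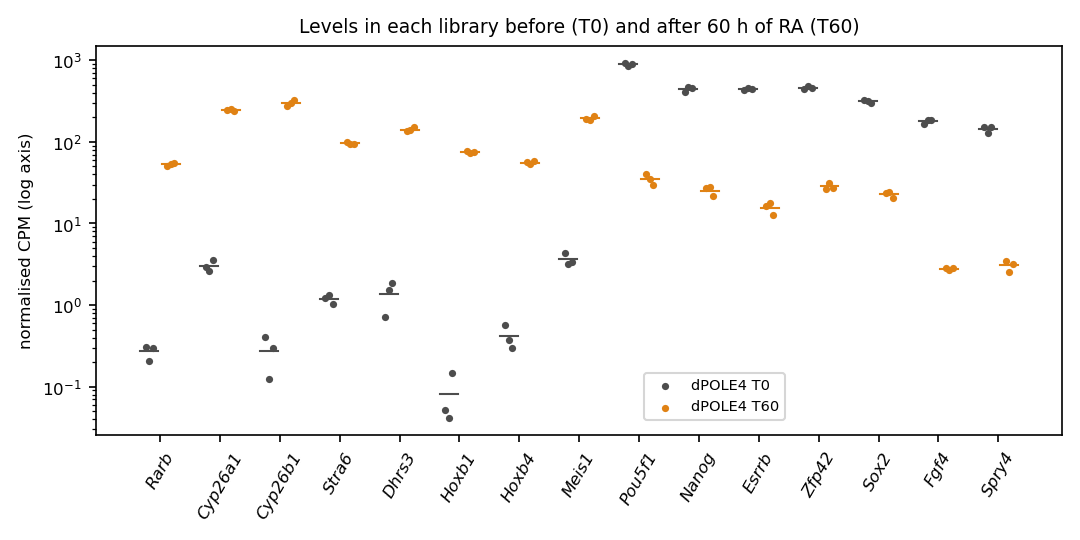
Normalised CPM on a log axis of 15 RA, Hox and pluripotency genes in each of the 3 dPOLE4 libraries at T0 (grey) and at T60 (orange), with bars at the means. The groups are apart for every gene shown, for example Rarb at 0.271 against 53 CPM on average and Pou5f1 at 894 against 35.1 CPM.

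Most Hox genes rose. Of the 39 members, 30 passed the filter on low counts, most of them only through the T60 libraries, and 28 rose while none fell. By cluster, 8 of 11 Hoxa genes on chromosome 6, 10 of 10 Hoxb genes on chromosome 11, 6 of 9 Hoxc genes on chromosome 15 and 4 of 9 Hoxd genes on chromosome 2 were called higher. The median log2 fold change of the tested genes was 6.64, or 6.40 with Hoxa6, which had no read at T0, set at its lower bound. Since the filter kept most of these genes for their T60 level, this median describes them and is no measure of the whole family.

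Hoxb1, the first gene of the Hoxb cluster, was at 0.0512, 0.0418 and 0.148 CPM at T0 and 77.4, 73.5 and 76.2 CPM at T60 (log2 fold change 9.67 ± 0.16 (SE), adjusted p = 4.5e-15). Hoxb4 was at 0.563, 0.376 and 0.297 CPM at T0 and 56, 53.7 and 57.6 CPM at T60 (log2 fold change 7.08 ± 0.13 (SE), adjusted p = 1.6e-14). In each the lowest T60 library was many times the highest T0 library, and the log2 fold change of Hoxb1 was 10.46 without the third T0 library. Several genes had so few reads at T0 that a ratio of read rates is given instead. Hoxb3 had 1 read over the 3 T0 libraries and 2356 reads over the 3 T60 libraries, a ratio of 3150 (95% counting interval 564 to 124000). Hoxc8, from the middle of its cluster, had 2 reads and 896 reads, a ratio of 599 (95% counting interval 165 to 4950). Of the genes that did not pass the filter on low counts, Hoxd3 was anterior and 8 were posterior (Hoxa10, Hoxa11, Hoxa13, Hoxc11, Hoxc12, Hoxd10, Hoxd11 and Hoxd12). Among the posterior genes tested, Hoxb13 rose by 4.68 ± 0.24 and Hoxd13 by 2.05 ± 0.32 on the log2 scale. Whether anterior and posterior genes differed was not tested.

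The partners of Hox proteins rose too. Of the 10 Meis, Pbx and Cdx genes, 8 rose and 2 fell. Meis1, a cofactor that binds DNA with Hox proteins, went from 4.3, 3.17 and 3.41 CPM to 191, 184 and 210.5 CPM (log2 fold change 5.74 ± 0.094 (SE), adjusted p = 4.5e-15). The groups did not overlap. The 3 caudal genes, regulators of posterior Hox genes, parted. Cdx1 rose by 2.69 ± 0.20 on the log2 scale and Cdx2 changed by -1.76 ± 0.33, the latter call being lost with robust dispersion estimates. Cdx4 had 67 reads at T0 and 1 at T60, a T0 to T60 ratio of 50.1 (95% counting interval 8.7 to 2010). The rise of Pbx4 was only just past the fold threshold at 0.58 ± 0.17 and was lost when any of 5 of the 6 libraries was left out, at 0.51 to 0.65.

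The pluripotency programme was much lower at 60 h. Of the 18 naive pluripotency genes, 17 fell and none rose, with a median log2 fold change of -3.27, and of 15 general pluripotency genes 14 fell and none rose, with a median of -1.74. Pou5f1, which encodes the core factor OCT4, was at 922, 852 and 907 CPM at T0 and 40.8, 34.8 and 29.7 CPM at T60 (log2 fold change -4.7 ± 0.090 (SE), adjusted p = 1.7e-14). Nanog was at 415, 468 and 462 CPM at T0 and 26.9, 27.7 and 21.5 CPM at T60 (log2 fold change -4.16 ± 0.087 (SE), adjusted p = 3.5e-14). Esrrb, an orphan nuclear receptor of naive cells, was at 431, 453 and 451 CPM at T0 and 16.3, 18 and 12.6 CPM at T60 (log2 fold change -4.84 ± 0.094 (SE), adjusted p = 1.8e-14). All 3 were lower in every T60 library than in any T0 library, but none reached 0. Sox2, which is also a neural progenitor factor, went from 329, 318 and 304 CPM to 23.7, 24.2 and 20.3 CPM (log2 fold change -3.82 ± 0.070 (SE), adjusted p = 1.2e-14). Nr0b1, a nuclear receptor gene of the pluripotency network, was at 71.4, 80 and 67.1 CPM at T0 and 0.534, 1.2 and 0.879 CPM at T60 (log2 fold change -6.31 ± 0.15 (SE), adjusted p = 1.1e-13). The exception among the naive genes was Tbx3, which was at 284, 243 and 286 CPM at T0 and 318, 293 and 309 CPM at T60 (log2 fold change 0.16 ± 0.062 (SE), adjusted p = 0.0345), so that its T60 libraries were slightly above its T0 libraries but did not pass the test. Tbx3 is also used in endoderm. In bulk RNA, fewer cells of a type and less RNA per cell cannot be told apart.

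Of the 9 genes of the LIF and STAT3 response list, 5 fell and none rose from T0 to T60, with LIF withdrawn after T0. Between T24 and T60, 5 of the 9 rose and 3 fell, with a median log2 fold change of 0.61. Socs3, the feedback inhibitor of STAT3, changed by -1.02 ± 0.096, while the receptor genes Lifr and Il6st were not called at -0.23 ± 0.061 and 0.15 ± 0.048 on the log2 scale. Formative pluripotency genes, which mark the step after the naive state, stood mostly low at 60 h. Of 15, 9 fell and 3 rose. Otx2, a driver of this step, went from 9.11, 13.3 and 12.7 CPM to 0.152, 0.311 and 0.0586 CPM (log2 fold change -5.94 ± 0.31 (SE), adjusted p = 3.6e-10), and the de novo DNA methyltransferase gene Dnmt3b from 373, 351 and 353 CPM to 83, 80.7 and 74.9 CPM (log2 fold change -2.2 ± 0.056 (SE), adjusted p = 2.2e-13). The groups were apart for both, and Otx2 stood at -6.82 without the second T60 library. The members that rose were Sox4 (2.7 ± 0.10), Foxd2 (5.23 ± 0.44, or 4.55 without the third T0 library) and the keratin gene Krt18 (2.32 ± 0.12), which is also used widely in epithelia.

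Of 22 FGF pathway genes, 10 fell and 5 rose. Fgf4, the main FGF of ES cells, was at 166, 184 and 186 CPM at T0 and 2.82, 2.67 and 2.81 CPM at T60 (log2 fold change -6.04 ± 0.087 (SE), adjusted p = 2.4e-15). Its feedback target Spry4 was at 152, 129.7 and 152 CPM at T0 and 3.43, 2.58 and 3.22 CPM at T60 (log2 fold change -5.6 ± 0.10 (SE), adjusted p = 1.2e-14). The 4 receptor genes all rose, with log2 fold changes of 0.87 ± 0.068 for Fgfr1, 1.99 ± 0.063 for Fgfr2, 1.64 ± 0.15 for Fgfr3 and 2.0 ± 0.15 for Fgfr4. The fifth gene that rose was the ligand gene Fgf10 (1.37 ± 0.19). The Nodal list had 5 of 14 genes higher and 5 lower. Those that fell were the ligand Nodal (-2.11 ± 0.083), its antagonists Lefty1 (-1.64 ± 0.14) and Lefty2 (-1.75 ± 0.20), the cofactor Foxh1 (-1.51 ± 0.078) and the convertase Pcsk6 (-1.28 ± 0.069), while the signal transducer Smad3 rose (1.91 ± 0.071). The Wnt list had 9 of 22 genes higher and 6 lower. Among them were the secreted inhibitor Dkk1, higher by 3.91 ± 0.20, and the receptor Lgr5, higher by 3.37 ± 0.26, while Wnt3 changed by -1.56 ± 0.16. The target Axin2, often taken as the readout of the pathway, was not called at 0.34 ± 0.11.

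Genes of extraembryonic and definitive endoderm were the most uniformly raised of the lineage lists. Of 30 tested genes, 27 rose and 1 fell, with a median log2 fold change of 3.19. Some of them, such as Ttr and Afp, passed the filter on low counts only through their T60 libraries. The median therefore describes the genes that were kept. With at least 10 counts required in every library, 25 were tested, of which 22 rose and 1 fell. Gata6, a master regulator of primitive endoderm, was at 3.89, 2.21 and 2.71 CPM at T0 and 73.8, 62.8 and 71.5 CPM at T60 (log2 fold change 4.56 ± 0.13 (SE), adjusted p = 7.8e-13). Sox17 was at 1.59, 0.627 and 0.779 CPM at T0 and 21.6, 18.7 and 19.2 CPM at T60 (log2 fold change 4.34 ± 0.20 (SE), adjusted p = 8.8e-11), and Foxa2 at 0.717, 0.334 and 0.223 CPM at T0 and 13.6, 11.4 and 13.3 CPM at T60 (log2 fold change 4.95 ± 0.24 (SE), adjusted p = 1.5e-10). The groups were apart in each. Products of mature visceral endoderm appeared as well. Ttr, the transthyretin gene, had 2 reads over the T0 libraries and 860 over the T60 libraries, a ratio of 575 (95% counting interval 159 to 4750), and Afp, the alpha-fetoprotein gene, had 2 and 393 reads, a ratio of 263 (95% counting interval 72.2 to 2180). The gene that fell was Fst (-1.2 ± 0.094), which encodes the activin antagonist follistatin.

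Neural genes split. Of 32 neural progenitor factors 22 were tested, of which 11 rose and 4 fell. The patterning factor Irx3 rose by 4.52 ± 0.12 on the log2 scale, while Nes rose by 1.03 ± 0.081 and Pax6 by 0.87 ± 0.11. The log2 fold changes of the list ran from -2.37 to 4.59. Sox2, which fell, was not a member of this list and is not in its counts. Sox1, a defining gene of neuroectoderm, was at 3.94, 2.05 and 3.01 CPM at T0 and 2.67, 2.18 and 1.76 CPM at T60 (log2 fold change -0.47 ± 0.25 (SE), adjusted p = 0.0995). The notch target Hes5 and Zic1 did not pass the filter on low counts. Of 29 tested genes of neuronal differentiation, 10 rose and 13 fell. Tubb3, a neuronal tubulin also transcribed in ES cells, went from 102, 108 and 104 CPM to 11.7, 11.5 and 14.9 CPM (log2 fold change -3.07 ± 0.085 (SE), adjusted p = 6.0e-13). Dcx, doublecortin, rose from 0.41, 0.251 and 0.185 CPM to 2.29, 2.75 and 3.28 CPM (log2 fold change 3.32 ± 0.31 (SE), adjusted p = 2.3e-07). The groups did not overlap for either. The neuronal list therefore moved in both directions, with a median log2 fold change of 0.16.

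Among mesoderm genes, 9 of 18 rose and 6 fell. Some of them, such as Foxf1 and Hand2, passed the filter on low counts only through their T60 libraries. With at least 10 counts required in every library, 12 were tested, of which 5 rose and 4 fell. T (brachyury), the mark of nascent mesoderm and primitive streak, was at 38.7, 22.2 and 30.8 CPM at T0 and 0.381, 0.267 and 0.469 CPM at T60 (log2 fold change -6.4 ± 0.29 (SE), adjusted p = 8.2e-11), and Mixl1 changed by -2.22 ± 0.29. Later mesoderm regulators rose. Foxf1, of lateral mesoderm, went from 0.0512, 0.0418 and 0.111 CPM to 14.6, 14.6 and 19.6 CPM (log2 fold change 7.7 ± 0.28 (SE), adjusted p = 1.0e-11), and Hand2 had 3 reads at T0 and 249 at T60, a ratio of 111 (95% counting interval 37.5 to 541). The rise of Tbx6 (1.16 ± 0.29) was lost when any of 4 libraries was left out, at 1.00 to 1.16 on the log2 scale. Of 14 genes of surface ectoderm and neural crest, 10 rose and 3 fell, with Sox9 at 5.0 ± 0.14 and Trp63 at 2.52 ± 0.38. With at least 10 counts required in every library, 10 of these were tested, of which 7 rose and 2 fell. Of 8 trophectoderm genes, 5 rose and 1 fell. Of 9 fibroblast genes, 7 rose and 2 fell, among them Col1a2 (4.31 ± 0.093) and Dcn (4.6 ± 0.37), in cells that were grown on gelatin-coated dishes per the labels.

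The defining markers of each cell type were also summed per library. The 7 ES cell markers summed to 3400 to 3600 CPM at T0 and to 282 to 345 CPM at T60, and all 7 fell. The 5 endoderm markers went from 14 to 24.7 CPM up to 227 to 274 CPM, and all 5 rose. The 5 neural progenitor markers went from 116 to 151 CPM up to 260 to 268 CPM, with 2 of them higher, 1 not called and 2 not tested. Their sum was 102 to 123 CPM at T24, the time at which Sox1 was highest, so that it does not stand for each marker. These 3 sets did not overlap between T0 and T60. The 4 neuron markers went from 108 to 114 CPM down to 15.7 to 19.7 CPM, and the 5 mesoderm markers from 27.7 to 45.1 CPM down to 6.94 to 7.15 CPM. Each of these 2 sets had 2 markers lower and 1 higher, and the T0 sums were mostly the reads of 1 gene, Tubb3 and T, so that they do not stand for their lists. The 3 trophectoderm markers went from 23.1 to 32.1 CPM up to 120 to 137 CPM with 2 higher, and the 5 fibroblast markers from 57.1 to 64.3 CPM up to 266 to 283 CPM with 3 higher and 1 lower. Neurog2 of the neuron, Mesp1 of the mesoderm, Elf5 of the trophectoderm and Lum of the fibroblast markers did not pass the filter on low counts. The part of a change in cell types in the single-gene results was not tested.

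Genes of the 2-cell-like state, in which a small share of ES cells transcribes genes of the 2-cell embryo, rose together. All 14 tested genes of this list rose, with a median log2 fold change of 3.74. Not all passed the filter on low counts at both times, and Zfp352 passed only through its T60 libraries. With at least 10 counts required in every library, 11 were tested and 11 rose. Zscan4d, of a cluster that acts on telomeres, was at 7.01, 1.8 and 3.6 CPM at T0 and 84.9, 68.7 and 70.7 CPM at T60 (log2 fold change 4.2 ± 0.23 (SE), adjusted p = 7.5e-10). Zfp352, a zinc finger gene of the 2-cell embryo, was at 0.41, 0.209 and 0.408 CPM at T0 and 5.64, 3.46 and 4.39 CPM at T60 (log2 fold change 3.65 ± 0.30 (SE), adjusted p = 4.9e-08). Both sets of T60 libraries were well above the T0 libraries. MERVL-int, the endogenous retrovirus of this state, was at 1016, 810.4 and 849.7 CPM at T0 and 5169, 4312 and 4572 CPM at T60 (log2 fold change 2.37 ± 0.085 (SE), adjusted p = 7.6e-12), and its LTR MT2_Mm was at 193, 158 and 156 CPM at T0 and 1065, 865 and 927 CPM at T60 (log2 fold change 2.47 ± 0.089 (SE), adjusted p = 8.2e-12). Of the 8 MERVL and MT2 subfamilies as a whole 3 rose and 2 fell, with a median of 0.09, and MT2A changed by -0.97 ± 0.082. The Zscan4 and Usp17l genes are near-identical copies, and reads that fit several places were kept, so that the share of each copy is uncertain.

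Imprinted genes, transcribed from 1 parental copy, were another group that mostly rose. Of 27, 16 rose and 1 fell, with a median of 1.3. The noncoding RNA gene H19 was at 355, 258 and 312 CPM at T0 and 11630, 11200 and 11980 CPM at T60 (log2 fold change 5.21 ± 0.100 (SE), adjusted p = 1.7e-14), so that it came to more than 1% of all counted reads. Igf2, its neighbour and a fetal growth factor, went from 20.1, 13 and 14.2 CPM to 172, 148 and 141 CPM (log2 fold change 3.27 ± 0.12 (SE), adjusted p = 9.6e-12). Peg3 went from 318, 264 and 296 CPM to 3109, 2966 and 3490 CPM (log2 fold change 3.42 ± 0.078 (SE), adjusted p = 8.2e-14). Each of these was higher in every T60 library. The gene that fell was Snrpn (-1.66 ± 0.056). Of 25 germline genes, 13 rose and 5 fell. Stra8, named for its stimulation by RA and needed for meiotic entry, was at 11, 13.5 and 18.3 CPM at T0 and 289, 347 and 310.1 CPM at T60 (log2 fold change 4.43 ± 0.13 (SE), adjusted p = 8.3e-13), while the synaptonemal complex gene Sycp3 fell (-1.95 ± 0.20).

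Chromatin genes moved in both directions. Of 31 Polycomb genes, 11 rose and 10 fell, with a median of -0.08. Core subunits of PRC2, the complex that methylates H3K27, were lower, with Eed at -1.52 ± 0.055 and Suz12 at -1.1 ± 0.060, whereas the catalytic Ezh2 was not called at -0.3 ± 0.051. Within PRC1, the H2A ubiquitin ligase complex, Phc1 went from 559, 521 and 533 CPM to 87.9, 95 and 90.8 CPM (log2 fold change -2.58 ± 0.054 (SE), adjusted p = 3.5e-14), and Cbx8 rose from 3.02, 2.3 and 2.6 CPM to 11.7, 12.2 and 14.5 CPM (log2 fold change 2.26 ± 0.14 (SE), adjusted p = 2.7e-09). In both the groups were apart, and the related Phc2 rose by 1.85 ± 0.073, while Cbx7 was not called at 0.02 ± 0.047. Among 13 DNA methylation genes, 3 rose and 5 fell. The demethylase gene Tet1 was at 618, 744 and 704 CPM at T0 and 70.7, 62.5 and 62.4 CPM at T60 (log2 fold change -3.43 ± 0.078 (SE), adjusted p = 8.2e-14), while its relative Tet3 rose by 2.09 ± 0.079. Of 24 genes of H3K9 methylation and repeat silencing, 7 fell and 1 rose, with Trim28, the co-repressor of retroviral repeats, at -1.71 ± 0.050.

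The replication machinery to which POLE4 belongs was lower at 60 h. Of the 11 genes of DNA polymerase epsilon and the MCM helicase, 8 fell and none rose, with a median of -0.91. In Ctrl cells 8 of the 11 fell as well, with a median of -0.84. The differences of the responses between dPOLE4 and Ctrl cells were -0.18 to 0.10, and none was called. Mcm2 was at 521, 499 and 509 CPM at T0 and 269, 285 and 274 CPM at T60 (log2 fold change -0.91 ± 0.048 (SE), adjusted p = 4.2e-10), and the other polymerase epsilon subunits were at -0.43 ± 0.051 for Pole, -0.6 ± 0.086 for Pole2 and -0.35 ± 0.072 for Pole3, of which Pole2 was called. That call was lost without the second T60 library or the second or the third T0 library, at -0.56 to -0.58. Of 27 cell cycle genes, 12 fell and 1 rose. Ccnd1, cyclin D1, went from 164, 153 and 146 CPM to 21.7, 19.6 and 19.7 CPM (log2 fold change -2.95 ± 0.068 (SE), adjusted p = 1.0e-13), and the gene that rose was Ccnd2, cyclin D2 (1.82 ± 0.082). The proliferation marker Mki67 was not called, with 0.45 ± 0.055. Of 7 CDK inhibitor genes 6 rose, among them Cdkn2c at 2.4 ± 0.23 and Cdkn1b at 0.91 ± 0.090. Of 20 targets of p53, 10 rose and 1 fell. Of 67 replication-dependent histone genes 6 rose and 1 fell, and of 21 histone chaperone genes 1 rose and 3 fell, both below the shares over all features.

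Metabolic and adhesion genes were less uniform. Of 22 hypoxia and glycolysis genes, 9 fell and 3 rose, with the phosphofructokinase gene Pfkp at -3.29 ± 0.087 and the lactate dehydrogenase gene Ldha at -1.0 ± 0.057. Of 18 cholesterol synthesis genes, 2 rose and 1 fell. None of the 13 protein genes of the mitochondrial genome rose and 4 fell, but the latter count was 10 without the first and 2 without the second T0 library. Of 25 matrix and adhesion genes, 17 rose and 3 fell. N-cadherin, Cdh2, rose by 2.28 ± 0.097 on the log2 scale, while E-cadherin, Cdh1, was not called at 0.08 ± 0.047.

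The 15 largest rises and falls were taken from called features with groups apart and a mean of at least 5 CPM in the higher group. Of the 15 features with the largest rise, 9 were Hox genes. The other 6 were Cyp26b1, Ttr, the orphan nuclear receptor gene Nr2f1, the dual oxidase maturation factor gene Duoxa2, 5730596B20Rik and the antisense gene Hoxb5os of the Hoxb cluster. Nr2f1 had 3 reads at T0 and 877 at T60, a ratio of 391 (95% counting interval 133 to 1900). Hoxb5os had no read at T0 and 1169 at T60, at least 521-fold higher, but the strand setting of the counting is not given in the sources used here, so that its reads cannot be told from those of the opposite strand. The 15 largest falls were mostly noncoding RNAs and genes of ES cells. Among them were the ES cell RNA Platr10, at 63.6, 74.3 and 71.2 CPM at T0 and 0.686, 0.577 and 0.41 CPM at T60 (log2 fold change -6.99 ± 0.14 (SE), adjusted p = 2.5e-14), the nephrin gene Nphs1, at 41.2, 52.3 and 51 CPM at T0 and 0.305, 0.4 and 0.41 CPM at T60 (log2 fold change -6.99 ± 0.18 (SE), adjusted p = 2.3e-13), and Vrtn, a regulator of vertebral number, at 11, 8.31 and 9.57 CPM at T0 and 0.0762, 0.178 and 0.0586 CPM at T60 (log2 fold change -6.34 ± 0.29 (SE), adjusted p = 9.1e-11, or -7.07 without the second T60 library).

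Repeats, counted per subfamily with reads that fit several places kept, mostly stayed or fell. Of 874 tested subfamilies, 34 rose and 256 fell, with a median log2 fold change of -0.40 against 0.02 for genes. Most of these were LTR retrotransposons, of which 29 of 515 rose and 207 fell. Of 138 LINE subfamilies 2 rose and 24 fell, or 14 without the second T60 library, and of 34 SINE subfamilies none rose and 4 fell. RLTR13G, an LTR subfamily, was at 503, 644 and 576 CPM at T0 and 40.7, 36.9 and 34.7 CPM at T60 (log2 fold change -3.97 ± 0.092 (SE), adjusted p = 1.0e-13). RLTRETN_Mm, the LTR of ETn elements, was at 197, 278 and 234 CPM at T0 and 22, 17.2 and 14.9 CPM at T60 (log2 fold change -3.75 ± 0.13 (SE), adjusted p = 7.8e-12). Against this trend MMVL30-int, the body of the VL30 retrotransposon, rose from 19.2, 19.3 and 17.5 CPM to 122, 114 and 113 CPM (log2 fold change 2.62 ± 0.065 (SE), adjusted p = 1.7e-13).

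The earlier libraries of the same dPOLE4 cells, at 12 h and 24 h of RA, place these changes in time. Between T24 and T60, 3311 (17.9%) of 18479 tested features rose and 2611 (14.1%) fell. T24 and T60 are here the times of the titles and design text, and the T60 libraries entered both comparisons. RA and Hox genes differed in their timing. Cyp26a1 averaged 3.06 ± 0.471, 156 ± 6.71, 171 ± 16.4 and 246 ± 5.85 CPM (SD, n = 3) at T0, T12, T24 and T60, and Hoxb1 0.0805 ± 0.059, 16.3 ± 0.0621, 78.2 ± 15.3 and 75.7 ± 1.98 CPM. Both had most of their rise behind them by T24. Cyp26b1 was late, at 14.1 ± 4.67, 26.7 ± 2.82 and 302 ± 25.7 CPM from T12 on, and rose by 3.52 ± 0.087 on the log2 scale after T24 (adjusted p = 1.4e-11).

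The Hox genes that changed after T24 were also counted by cluster. After T24, 6 of 7 tested Hoxc genes and 4 of 5 tested Hoxd genes rose, but 1 of 9 Hoxa genes, of which 2 fell. Of 10 Hoxb genes 5 rose. Hoxc8 was at 0.587, 0.526 and 0.606 CPM at T24 and at 16.5, 16.3 and 18.3 CPM at T60 (log2 fold change 4.91 ± 0.16 (SE), adjusted p = 9.0e-11), whereas Hoxb1 did not pass the test, at 76.9, 94.2 and 63.6 CPM and 77.4, 73.5 and 76.2 CPM (log2 fold change -0.04 ± 0.11 (SE), adjusted p = 0.741). Whether the clusters differed was not tested.

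**Figure D3:**
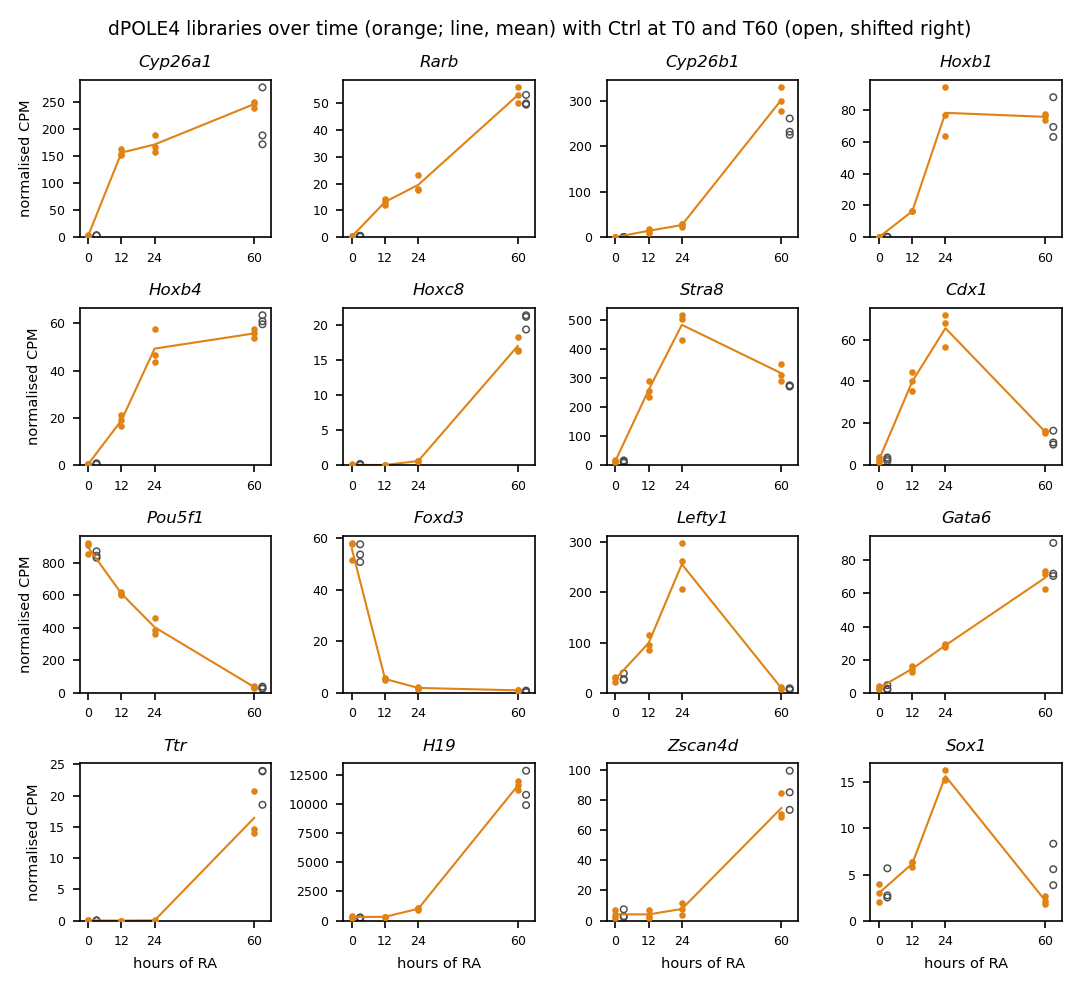
Normalised CPM of 16 genes against hours of RA in dPOLE4 libraries (orange points, 3 per time; line through the means), with the Ctrl libraries at T0 and T60 (open points, shifted right). Cyp26a1 has most of its rise and Hoxb1 its final level by 24 h, Ttr, H19 and Zscan4d rise mainly after 24 h, and Lefty1, Sox1, Cdx1 and Stra8 are highest at 24 h.

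Several genes were highest at 24 h. Cdx1 averaged 2.52, 65.5 and 16 CPM at T0, T24 and T60, and Stra8 14.3, 482 and 315 CPM. Lefty1 was at 263, 298 and 207 CPM at T24 and 10.7, 9.24 and 7.44 CPM at T60 (log2 fold change -4.81 ± 0.14 (SE), adjusted p = 5.5e-11). Sox1, not called between T0 and T60, was at 15.4, 16.3 and 15.3 CPM at T24 and fell after it (log2 fold change -2.84 ± 0.14 (SE), adjusted p = 3.3e-09). The 60 h comparison alone does not show such transient rises.

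After T24, 24 of 30 tested endoderm genes rose and none fell, with a median log2 fold change of 1.89 against 3.19 from T0 to T60. The 5 endoderm markers already summed to 56.9 to 69.3 CPM at T24, above all T0 libraries. All 14 genes of the 2-cell-like list rose after T24, with a median of 2.94 against 3.74 from T0 to T60. The features with the largest late rise were Ttr, Nr2f2, Smoc2, Igfbp5 and Afp. Nr2f2, an orphan nuclear receptor related to Nr2f1, was at 0.743, 1.09 and 1.48 CPM at T24 and 73.9, 72.9 and 81.2 CPM at T60 (log2 fold change 6.18 ± 0.13 (SE), adjusted p = 5.8e-12). Igfbp5, a binding protein of insulin-like growth factors, was at 1.64, 1.28 and 1.62 CPM and 71.1, 84.9 and 94 CPM (log2 fold change 5.81 ± 0.14 (SE), adjusted p = 1.3e-11). Pou5f1 was at 386, 459 and 365 CPM at T24 and 40.8, 34.8 and 29.7 CPM at T60 (log2 fold change -3.52 ± 0.11 (SE), adjusted p = 7.7e-11), so that on the log2 scale most of its fall also came after T24. The largest late falls were those of Cphx1, Platr10, Lefty1, Accsl and Spry4.

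The comparison with Ctrl cells asks whether POLE4 depletion changed the response. In Ctrl cells, 4856 (26.9%) of 18082 features rose and 4288 (23.7%) fell from T0 to T60. The dPOLE4 and Ctrl responses share no library, so they can be set side by side. Over 17872 features tested in both, the 2 sets of log2 fold changes had a Pearson correlation of 0.964 across features, which are not independent replicates. Of the features higher in dPOLE4 cells 91.8% were also higher in Ctrl cells, and these were 88.3% of those higher in Ctrl. For lower features the shares were 86.5% and 82.4%. No feature was called in opposite directions.

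Tested directly, the difference of the responses was called for 2 of 19306 features (0.0104%), both of them repeats and both with the larger log2 fold change in dPOLE4 cells. An unadjusted p under 0.05 was found for 2518 features, and DESeq2 called 5 higher and 7 lower. With the replicate number as a block, 4 were higher and 2 lower. MMVL30-int was at 19.2, 19.3 and 17.5 CPM at T0 and 122, 114 and 113 CPM at T60 in dPOLE4 cells, and at 17.4, 19.6 and 17.9 and 70, 62.5 and 62.8 CPM in Ctrl cells, a difference of 0.82 ± 0.10 on the log2 scale (adjusted p = 0.00295). At T0 the libraries of both groups were close, and at T60 all dPOLE4 libraries were above all Ctrl libraries. How many of all features were apart between these groups at T60 was not counted. MMERVK10C-int, the body of another endogenous retrovirus, was at 193, 228 and 205 and 352, 321 and 354 CPM in dPOLE4 cells, and at 240.3, 227 and 244 and 219, 257 and 241 CPM in Ctrl cells (0.71 ± 0.098, adjusted p = 0.00646). Both calls depended on single libraries. Neither passed without the first or the third dPOLE4 T60 library, the second Ctrl T0, the third dPOLE4 T0 or the third Ctrl T60 library, where the log2 differences were 0.78 to 0.84 for MMVL30-int and 0.69 to 0.75 for MMERVK10C-int. The call of MMERVK10C-int was also lost without the first or the third Ctrl T0 library, the first dPOLE4 T0 or the first Ctrl T60 library, at 0.65 to 0.70. Neither was called in a fit of all 16 groups or against a 1.5-fold change.

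The repeats had a less negative median in dPOLE4 cells. Their median log2 fold change was -0.40 in dPOLE4 and -0.78 in Ctrl cells over the 839 subfamilies tested in both, with 253 and 493 of them called lower, and the median of the tested differences was 0.35. Reads from repeats were 8.41% ± 0.232 of the Ctrl T0 libraries and 5.96% ± 0.126 of the Ctrl T60 libraries. Of the 896 subfamilies with a tested difference, 311 had an unadjusted p under 0.05, 2 passed the threshold, and whether the class as a whole differed was not tested. No gene list had a called difference, but not all had medians near 0. Over all 18410 genes tested for the difference, 8488 had a positive one, the median was -0.02 and 2207 had an unadjusted p under 0.05. The list counts that follow are to be read against these. Of 24 neural progenitor genes tested for the difference, 4 had a positive one, the median was -0.46 and 8 had an unadjusted p under 0.05. Of 30 endoderm genes the difference was positive in 6, with a median of -0.34 and 10 at an unadjusted p under 0.05. The 13 mitochondrial protein genes had a median difference of 0.56, the furthest from 0 of the gene lists. Of these, 11 were positive and 7 had an unadjusted p under 0.05. All 14 genes of the 2-cell-like list rose in Ctrl cells too, with a median log2 fold change of 4.10 against 3.74 in dPOLE4 cells. Of their differences 1 was positive, with a median of -0.38 and 3 at an unadjusted p under 0.05. Among RA transport and metabolism genes the lowest was that of Crabp1 at -1.26 ± 0.22 (adjusted p = 0.0704). For genes named above, the log2 fold change was 6.94 in Ctrl against 7.56 in dPOLE4 cells for Rarb, -4.8 against -4.7 for Pou5f1 and 5.48 against 5.21 for H19. The difference was 0.63 ± 0.40 for Rarb, moving between 0.40 and 0.97 with single Ctrl T0 libraries left out, and 0.12 ± 0.15 for Pou5f1, and a p that misses the threshold does not show that these responses were alike. With a median SE of 0.18 for a difference, small ones were not detectable with 3 libraries a group.

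**Figure D4:**
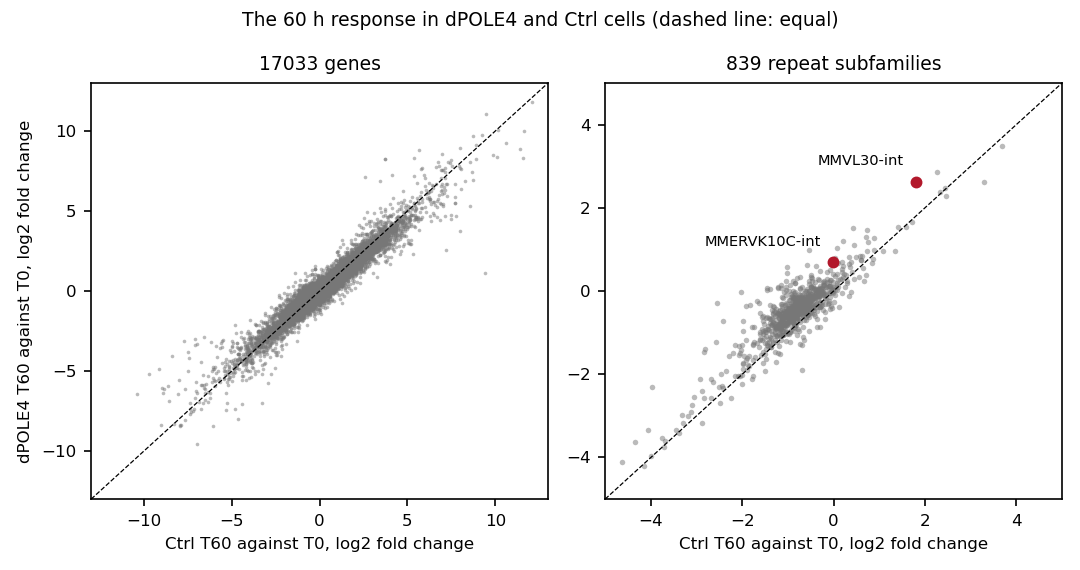
Log2 fold change at T60 against T0 in dPOLE4 cells (y axis) and in Ctrl cells (x axis) for 17033 genes (left) and 839 repeat subfamilies (right), with the line of equality dashed. Genes lie along the line, most repeats lie above it, and the 2 called repeats are marked in red.

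The comparison with dPOLE4 MCM2-2A cells asks how the response differs when a second histone recycling factor is mutated as well. The difference of the responses was called for 757 features with a larger (3.84% of 19702) and 862 with a smaller (4.38%) log2 fold change in dPOLE4 cells. This line is another clone and its T0 levels differed too, so that the mutation, the clone and the starting level cannot be told apart. T was at 38.7, 22.2 and 30.8 CPM at T0 in dPOLE4 cells and at 1.11, 1.15 and 1.48 CPM in dPOLE4 MCM2-2A cells, and the Wnt target Sp5 at 18.7, 13.3 and 13.5 and 0.877, 0.503 and 0.479 CPM. These had the largest negative differences, -5.93 ± 0.48 and -5.35 ± 0.28, and they differed already before RA.

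Pluripotency genes fell further in dPOLE4 cells than in dPOLE4 MCM2-2A cells. Of 18 naive genes, 14 had a smaller log2 fold change in dPOLE4 cells and none a larger one, and of 15 general pluripotency genes 6 and none. At T60 Nanog was at 26.9, 27.7 and 21.5 CPM in dPOLE4 cells and 119, 105 and 99.5 CPM in dPOLE4 MCM2-2A cells, from 421, 429 and 476 CPM at T0 in the latter (difference -2.1 ± 0.14, adjusted p = 3.0e-08). Esrrb was at 16.3, 18 and 12.6 and 89.5, 76.9 and 60.8 CPM at T60 (difference -2.49 ± 0.17, adjusted p = 5.6e-08). Pou5f1 was at 40.8, 34.8 and 29.7 and 176, 160 and 127 CPM (difference -2.08 ± 0.17, adjusted p = 3.3e-07). In all 3 genes the dPOLE4 libraries lay below all dPOLE4 MCM2-2A libraries at T60. The share of all features for which these 2 groups do not overlap was not counted, so that this only describes the 3 genes.

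RA targets split. Of 16 tested RA transport and metabolism genes, 4 had a larger and 2 a smaller log2 fold change in dPOLE4 cells, with differences from -2.08 to 2.53. Of 6 RA receptor genes, 2 had a larger and 1 a smaller one, with differences from -0.68 to 2.35. The responses of Rarb, Crabp2, Dhrs3 and Cyp26b1 were larger in dPOLE4 cells, with log2 differences of 1.94 ± 0.33, 2.24 ± 0.18, 2.53 ± 0.22 and 2.13 ± 0.37. That of Cyp26a1 was smaller at -0.83 ± 0.16. The call of Rarb was lost without the third dPOLE4 MCM2-2A T0 library, at 1.73. Of 36 Hox genes tested, 7 had a larger and 1, Hoxd9, a smaller log2 fold change in dPOLE4 cells. Hoxb1 was at 77.4, 73.5 and 76.2 CPM at T60 in dPOLE4 cells and 46.4, 36.1 and 39.7 CPM in dPOLE4 MCM2-2A cells, from 0.468, 0.359 and 0.457 CPM at T0 in the latter (difference 3.2 ± 0.47, or 4.01 without the third dPOLE4 T0 library, adjusted p = 1.2e-04). Of 27 imprinted genes 9 had a larger and 3 a smaller log2 fold change. H19 reached 11630, 11200 and 11980 CPM in dPOLE4 cells and 2608, 3109 and 2606 CPM in dPOLE4 MCM2-2A cells. Of the 14 genes of the 2-cell-like list none passed the test of the difference. All 14 differences were positive, at 0.69 to 1.65 with a median of 1.11. Of these, 12 had an unadjusted p under 0.05, and the lowest adjusted p was 0.0129. Over all 19702 features tested, 9848 differences were positive and 5902 had an unadjusted p under 0.05. The list holds near-identical gene copies, so that its members are not separate observations. Whether the list as a whole differed was not tested. Against Ctrl cells, by contrast, 1 of the 14 differences was positive, with a median of -0.38, and none was called.

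**Figure D5:**
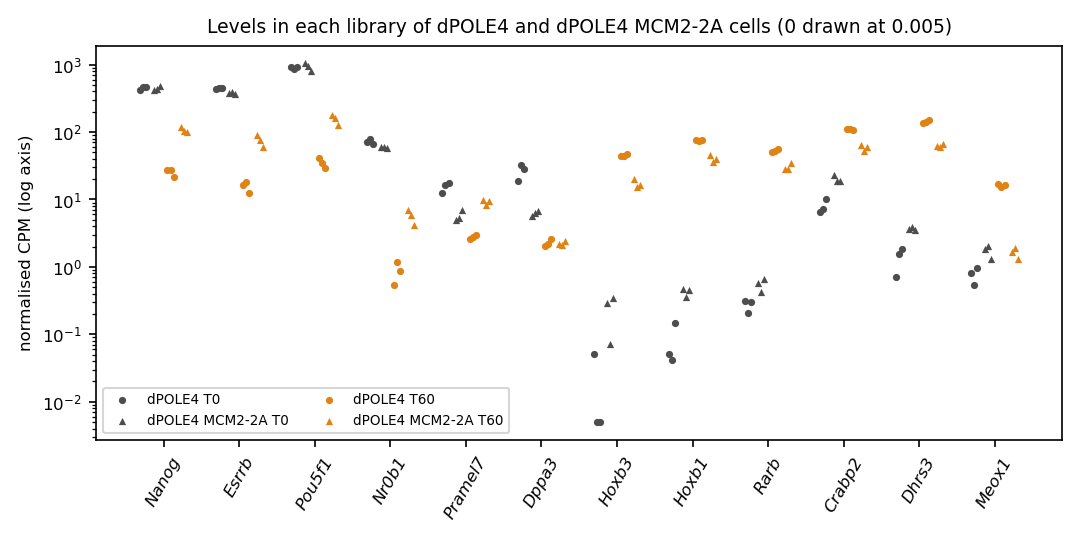
Normalised CPM on a log axis of 12 genes in each library of dPOLE4 cells (circles) and dPOLE4 MCM2-2A cells (triangles) at T0 (grey) and T60 (orange), with libraries at 0 drawn at 0.005. At T60 Nanog, Esrrb and Pou5f1 are higher in dPOLE4 MCM2-2A cells, and Hoxb3, Crabp2 and Meox1 are higher in dPOLE4 cells.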

How the data were processed

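RNA-seq was done on 3 libraries per group, which the study calls biological replicates. Per the labels and the study's methods, total RNA was depleted of ribosomal RNA, made into strand-specific libraries and sequenced paired-end. The authors trimmed reads with cutadapt 4.2, aligned them to mm10 with STAR, keeping reads that fit several places, and counted them per GENCODE M25 gene and per repeat subfamily with TEcount. The deposited values are raw counts of reads, with no normalisation. The strand setting of the counting is not given in the sources used here. Reads that fit several copies make values of repeats and gene copies less certain. The authors' own tests used DESeq2.

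Here edgeR 4.0.16 in R 4.3.3 was run on the counts as deposited. Features were kept by filterByExpr (minimum count 10, minimum total 15), library sizes were scaled by TMM over genes and repeats, and glmQLFTest was applied to the libraries of each comparison alone. Features were called at a Benjamini-Hochberg adjusted p below 0.01 and a log2 fold change over 0.58. SEs were derived from the F statistics. CPM use TMM factors over the 48 libraries of the count table, whose depth was 10461077 to 46609151 reads, and the libraries of a later experiment were not used. Gene symbols and positions were taken from GENCODE M21. Bounds for genes with no read in a group take 3 reads as the floor over the group, and counting intervals are exact at 95% and cover counting error only. The median SE was 0.11 on the log2 scale. P-values measure only the spread between these libraries. The script was tested on simulated data. Members and lists were chosen with earlier results of these data known. Named features were list members, the 15 called features with the largest change in each direction with groups apart and at least 5 CPM in the higher group, the 5 repeats with the largest change in each direction, and 10 or 5 in each direction for the other comparisons. A few list members enter the counts but are not reported here by name. Replicate numbers are shared by the groups. Deviations of same-numbered libraries correlated at 0.249 to 0.67 between dPOLE4 MCM2-2A T60 and T0 and at 0.312 to 0.436 between dPOLE4 T0 and Ctrl T0, but at 0.006 to 0.069 between dPOLE4 T60 and T0. Alternatives were DESeq2 1.42.0 and its size factors, TMM from genes, other filters, a replicate block, a fit of all 16 groups, robust dispersions, other fold thresholds and leaving out each library.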

Additional observations from a re-analysis of the deposited data

Results flagged for a closer look

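The response to RA differed between dPOLE4 and Ctrl cells by the test of the difference for MMVL30-int, by 0.82 on the log2 scale, and for MMERVK10C-int, by 0.71, both larger in dPOLE4 cells. Neither was called in a fit of all 16 groups, against a 1.5-fold change or when any 1 of 5 libraries was left out, and MMERVK10C-int was called in 3 of the 12 fits without 1 library.

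Between dPOLE4 and dPOLE4 MCM2-2A cells the same test called 757 features with a larger and 862 with a smaller log2 fold change in dPOLE4 cells. The differences that follow are on the log2 scale as fitted. For genes with few reads at T0, such as Hoxb3, they depend on the prior count and are no bound. Among RA and Hox genes, of which not all called ones are given, the difference was 1.94 for Rarb, 2.24 for Crabp2, 2.53 for Dhrs3, 2.13 for Cyp26b1, -0.83 for Cyp26a1, 5.26 for Hoxb3, 3.20 for Hoxb1, 3.33 for Hoxc4 and -3.62 for Hoxd9. The imprinted H19 differed by 2.50. Without 1 library Hoxb3 moved between 4.67 and 7.07, Hoxb1 to 4.01, Hoxc4 to 2.63 and Hoxd9 to -2.97. Pluripotency genes fell further in dPOLE4 cells, with differences of -2.10 for Nanog, -2.49 for Esrrb, -2.08 for Pou5f1 and -2.90 for Nr0b1.

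The other features with the largest positive differences were Tnni2, the fast skeletal troponin I gene, at 4.57, the somite regulator Meox1 at 4.39, Shisa3 at 3.98, Daam2 at 3.97, the GDNF family receptor gene Gfra3 at 3.66, the endothelin receptor gene Ednrb at 3.65, Vstm4 at 3.56 and Nr2f1 at 3.54. The calls of Vstm4 and Nr2f1 were lost when single T0 libraries were left out, among them the third dPOLE4 MCM2-2A T0 library, at 2.50 and 3.12. The largest negative differences were T at -5.93, Sp5 at -5.35, the zinc transporter gene Slc39a8 at -4.67, Vrtn at -4.48, the apelin gene Apln at -4.05, the lipoxygenase gene Alox15 at -3.89, Sh2d4b at -3.86, Gm13128 at -3.71, Epp13 at -3.64 and the antisense gene Nphs1os at -3.61. The call of Nphs1os was lost in 10 of the 12 fits without 1 library, and its value was -5.76 without the third dPOLE4 T60 library. Without the second dPOLE4 T60 library Epp13 stood at -5.11 and Vrtn at -5.23. Daam2 stood at 3.18 without the first and at 4.64 without the third dPOLE4 MCM2-2A T0 library. The parts of the clone, of the mutation and of the T0 level cannot be told apart.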

How the results depend on the processing

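For the response of dPOLE4 cells from T0 to T60, the counts of called features stayed within 1.5 times under all alternatives run, at 3607 to 6258 higher and 2850 to 6174 lower, and without 1 library at 4595 to 5024 and 4027 to 4432. No feature was called in opposite directions. Scaling moved the median of all features by less than 0.1 on the log2 scale. With at least 10 counts required in every library, 3 Hox genes remained to be tested, and 2 of them rose. Of the mitochondrial protein genes, 4 fell, but 7 with no filter and 1 with all 16 groups. Without 1 library the lower members were 1 to 3 for imprinted genes (above 1 in 5 of 6 fits, not without the second T60 library), 1 or 2 for endoderm genes (2 without the first T60, the second T0 or the third T0 library), 0 or 1 for Hox genes (1 without the first or the third T60 or the first T0 library), 0 to 2 for RA transport and metabolism (2 without the third T60 or the second T0 library) and 1 to 3 for replication-dependent histones (2 without the third T60 and 3 without the first T0 library).

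The difference from Ctrl was the least stable comparison. In place of 2 higher and 0 lower, DESeq2 called 5 and 7, no filter 60 and 27, at least 10 counts in every library 1 and 0, and the fit of all 16 groups as well as the test against a 1.5-fold change 0 and 0. Without 1 library 0 to 3 were called higher and 0 lower. The cause was not tested. Against a 1.5-fold change, 224 features had a larger and 346 a smaller log2 fold change in dPOLE4 than in dPOLE4 MCM2-2A cells, and 2032 rose and 1408 fell between T24 and T60. Without a fold threshold the latter were 5043 and 4517.

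Same-numbered dPOLE4 T60 and T0 libraries correlated at 0.006, 0.036 and 0.069, and 2 of 3 correlated best with their own number. With the replicate block 4893 features rose and 4333 fell in dPOLE4 cells, and 4 larger and 2 smaller differences from Ctrl were called. Of the counts over all features the block moved no other by over 1.5 times. Of the list counts, those that it moved by 1.5 times or more, or from 0, were counts of lower genes. They went from 4 to 6 for the mitochondrial genome, from 1 to 2 for imprinted genes and from 0 to 1 for Hox genes and for RA transport and metabolism. Smaller moves were also seen for higher genes, such as from 10 to 12 for surface ectoderm and neural crest and from 27 to 26 for endoderm.

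Of the values of named features, 4260 kept direction and call, 69 lost and 24 gained a call, and 4 changed sign. The last were uncalled values near 0, with Cbx7 at -0.006 with TMM from genes and at -0.010 to 0.041 without 1 library, Hoxb1 after T24 at -0.19 to 0.094 and the difference of Pou5f1 from Ctrl at -0.004 to 0.327. Depth limits what can be said of genes near 0 reads at T0.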
